A study of Macaca mulatta with 12 samples.

Results

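The genes described here carry out the urea cycle and early steps of glutamine, tryptophan and tyrosine breakdown in the liver. They were chosen as 10 gene symbols (NAGS, CPS1, OTC, ASS1, ASL, ARG1, SLC25A15, GLS2, TDO2 and HPD), and the rows of the transcript table with a matching Ensembl macaque identifier were summed per gene. Identifiers were found for 9 of the 10, among 23993 genes in the table. SLC25A15, the mitochondrial ornithine carrier, matched no identifier and was not analysed here. All 9 passed the filter on low counts, as did 18373 genes in all.

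RNA came from liver biopsies of 6 male rhesus macaques (Macaca mulatta, about 4.6 years old), with 2 biopsies per animal and 12 libraries in all. The later biopsy closed an induction of 90 days, with daily ethanol doses of 0.5, 1 and 1.5 g/kg in 3 steps of 30 days that were the same for every animal, and the earlier one preceded it. Over 12 months of open access afterwards, 3 animals drank 4.0 g/kg/day and were classed as very heavy drinkers (VHD), and 3 drank 1.5 g/kg/day and were classed as light drinkers (LD). The 4 groups were VHD post-induction, VHD baseline, LD post-induction and LD baseline, with 3 libraries each. The class names describe drinking after both biopsies, and no group went without ethanol over the same 90 days, so the effects of ethanol and of time cannot be told apart.

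Ammonia freed from amino acids is toxic, and the liver turns it into urea. In hepatocyte mitochondria NAGS makes N-acetylglutamate, the activator that CPS1 needs to join ammonia with bicarbonate, and OTC passes the product to ornithine. The cycle goes on in the cytosol, where ASS1 and ASL add the second nitrogen from aspartate and ARG1 splits arginine into urea and ornithine. Urea cycle enzymes are known to be most abundant around the portal veins, where glutaminase is found as well.

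Total transcript counts were between 5970033 and 25060718 per library, and between 20704 and 23348 genes were detected. Hepatocyte markers took a large share of the counts in every library. The 7 of 9 listed markers that were found (ALB, APOA1, APOB, TF, SERPINA1, FGB and FGA) summed to 147378 to 222150 CPM (counts scaled to a common library total with TMM factors) in VHD post-induction, 140581 to 260939 in VHD baseline, 181822 to 260792 in LD post-induction and 225319 to 259428 CPM in LD baseline livers. In bulk tissue, fewer hepatocytes and less RNA per hepatocyte cannot be told apart. Component 1 of all tested genes (31.4% of the variance) had positive scores in 5 libraries, 4 of them post-induction, and VHD post-induction 2 and VHD baseline 3 stood apart from the rest on component 2 (20.6%).

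In Mmul_8.0.1 coordinates as the transcript table gives them, where a start may differ by 1 base because its counting could not be settled, the genes lie on 8 chromosomes. NAGS (ENSMMUG00000009713) spans 49854055 to 49859084 on the plus strand of chromosome 16. CPS1 (ENSMMUG00000010508) spans 92199203 to 92318531 on the plus strand of chromosome 12. OTC (ENSMMUG00000013493) spans 38229064 to 38298661 on the plus strand of chromosome X. ASS1 (ENSMMUG00000001522) spans 8176048 to 8233467 on the minus strand of chromosome 15. ASL (ENSMMUG00000011871) spans 50063301 to 50085911 on the minus strand of chromosome 3. ARG1 (ENSMMUG00000017540) spans 135904177 to 135916595 on the minus strand of chromosome 4. Chromosome 11 holds GLS2 (ENSMMUG00000000860) at 55264274 to 55284992 and HPD (ENSMMUG00000016454) at 122149235 to 122171929, both on the minus strand. TDO2 (ENSMMUG00000022018) spans 155871761 to 155889252 on the plus strand of chromosome 5.

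The mitochondrial entry of the cycle held the member with the largest mean log2 fold change after induction and the member with the steadiest level. NAGS, which makes the activator of CPS1, was at 16.6, 37.4 and 13.4 CPM in VHD post-induction livers 1, 2 and 3, against 12.1, 7.88 and 13.2 CPM in the VHD baseline livers of the same animals. In LD animals it was at 32.1, 15.5 and 8.24 CPM post-induction, against 8.998, 11.3 and 10.4 CPM at baseline. The VHD post-induction and VHD baseline levels did not overlap, by a margin of 13.4 against 13.2 CPM, whereas LD post-induction 3 lay below every LD baseline liver. NAGS was the least counted of the 9 genes, with 52 to 683 reads per library.

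CPS1, which fixes free ammonia, was at 2101, 1636 and 2567 CPM in VHD post-induction livers, against 2092, 2476 and 1751 CPM in VHD baseline livers. Its LD levels were 2323, 2206 and 1961 CPM post-induction, against 2342, 1495 and 2538 CPM at baseline. The 4 group means lay between 2101 and 2163 CPM, and the highest library was only 1.72 times the lowest. Over the 12 libraries the SD of its log2 CPM was 0.25, against a median of 0.59 over all tested genes.

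OTC, an X-linked gene whose product forms citrulline, was at 337, 192 and 166 CPM in VHD post-induction livers, against 318, 165 and 116 CPM in VHD baseline livers. In LD livers it was at 397, 163 and 113 CPM post-induction, against 242, 259 and 199 CPM at baseline. LD post-induction livers therefore held the highest and the lowest OTC level of the series.

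**Figure D1:**
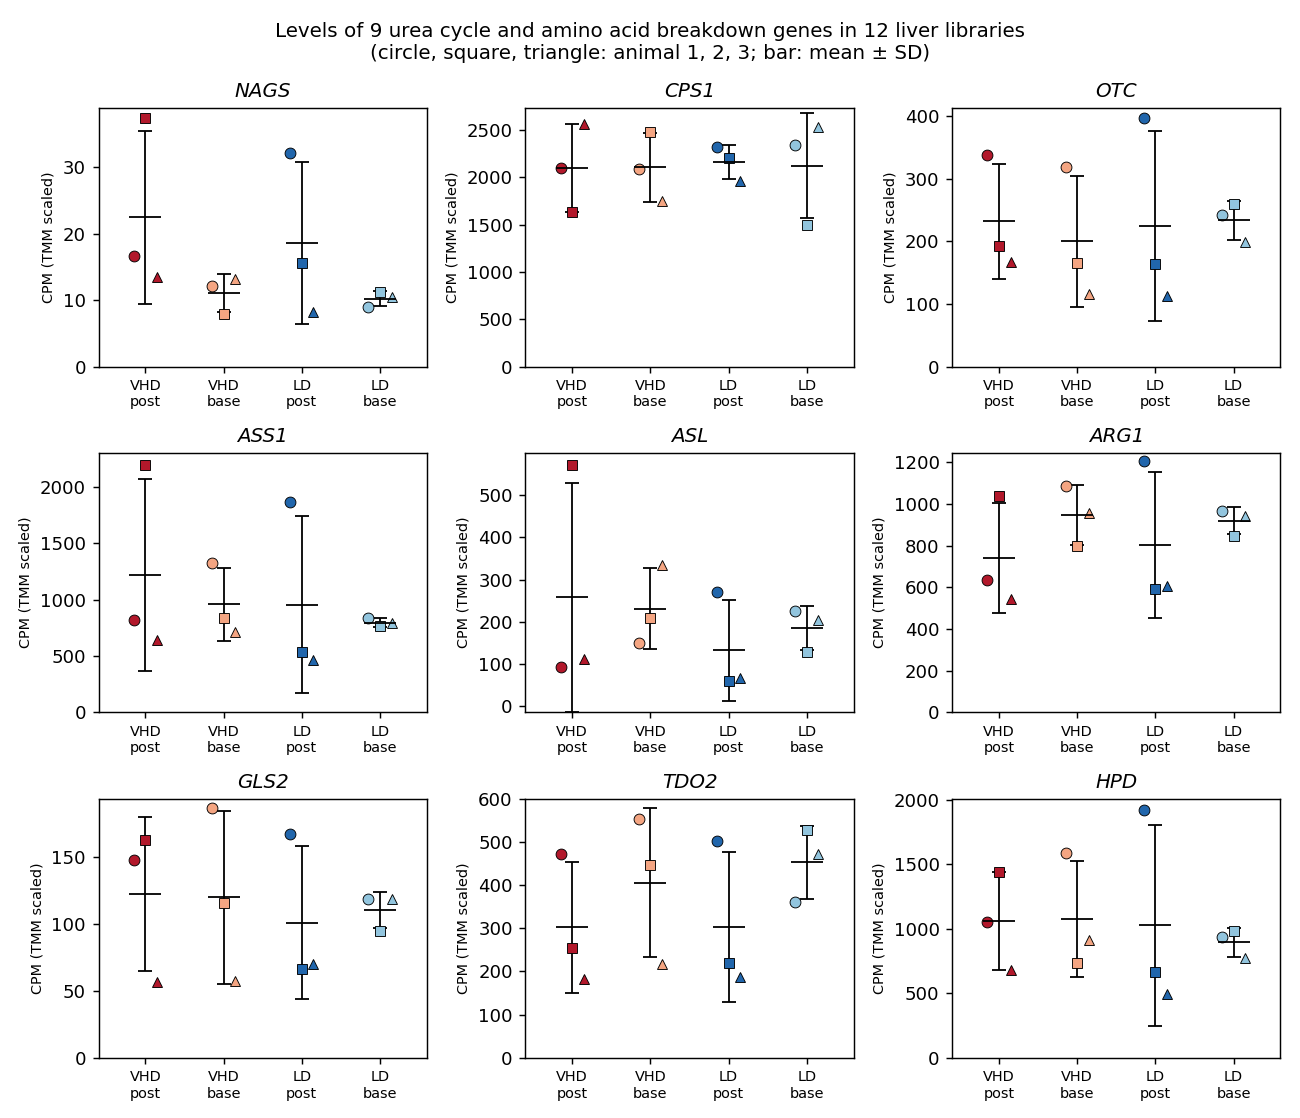
Levels of the 9 genes in CPM (vertical axis, one panel per gene) by group, with VHD post-induction, VHD baseline, LD post-induction and LD baseline along the horizontal axis. Circles, squares and triangles are animals 1, 2 and 3 and bars are the mean ± SD of 3 libraries. Groups overlap in every panel, except that the 3 VHD post-induction values of NAGS (13.4 to 37.4 CPM) lie above its VHD baseline values (7.88 to 13.2 CPM).

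In the cytosolic part of the cycle, single post-induction livers held the extremes. ASS1, which joins citrulline and aspartate, was at 821, 2201 and 639 CPM in VHD post-induction livers, against 1328, 838 and 712 CPM in VHD baseline livers. It was at 1866, 538 and 463 CPM in LD post-induction livers, against 836, 762 and 789 CPM in LD baseline livers. The LD baseline livers were close together (SD 37.7 CPM), while the LD post-induction livers stood on either side of them (SD 789 CPM). In human, ASS1 is known for processed pseudogenes, and how reads shared with such copies were assigned is not given in the sources used here.

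ASL, which releases arginine, was at 92.4, 570 and 112 CPM in VHD post-induction livers, against 149, 210 and 335 CPM in VHD baseline livers. LD livers had 271, 59.2 and 67.7 CPM post-induction, against 226, 128 and 205 CPM at baseline. It had the widest spread of the 9, with 9.63 times as much in the highest library (VHD post-induction 2) as in the lowest (LD post-induction 2).

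ARG1, the arginase of hepatocytes, was at 633, 1041 and 544 CPM in VHD post-induction livers, against 1089, 798 and 956 CPM in VHD baseline livers. In LD livers it was at 1206, 591 and 608 CPM post-induction, against 967, 845 and 944 CPM at baseline. In each class 2 of 3 post-induction livers lay below every baseline liver of that class and the remaining one lay within or above the baseline values.

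GLS2, the liver glutaminase that frees ammonia from glutamine, was at 148, 163 and 56.5 CPM in VHD post-induction livers, against 186, 116 and 57.4 CPM in VHD baseline livers. It was at 167, 66.1 and 69.7 CPM in LD post-induction livers, against 118, 94.8 and 118 CPM in LD baseline livers. In animal VHD3 the level was low at both times.

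TDO2, which opens the tryptophan ring as the first step towards kynurenine, was at 473, 253 and 182 CPM in VHD post-induction livers, against 554, 446 and 217 CPM in VHD baseline livers. LD livers had 503, 220 and 188 CPM post-induction, against 361, 527 and 472 CPM at baseline. It was lower after induction in 5 of 6 animals, LD1 being the exception, and 13.1% of all tested genes were lower in at least 5 of 6 animals.

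HPD, which turns hydroxyphenylpyruvate into homogentisate in tyrosine breakdown, was at 1057, 1439 and 681 CPM in VHD post-induction livers, against 1586, 735 and 910 CPM in VHD baseline livers. It was at 1925, 665 and 493.3 CPM in LD post-induction livers, against 936, 984 and 770 CPM in LD baseline livers. The highest and the lowest HPD level of the series were again both in LD post-induction livers.

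The response to induction was tested as the mean of the VHD and LD responses, with edgeR's quasi-likelihood test over all 12 libraries and Benjamini-Hochberg adjustment over all genes. None of the 9 genes passed an adjusted p of 0.05, where 0.267% of all tested genes did. DESeq2 and limma-trend also called 0 of the 9. At an unadjusted p under 0.05 the count was 1 of 9, against 7.91% of all tested genes. That gene was NAGS, with a log2 fold change of 0.94 ± 0.35 (SE), 1.92-fold higher post-induction, and it failed the adjustment (adjusted p = 0.453). It was higher in 5 of 6 animals, and 14.9% of all tested genes were higher in at least 5 of 6. TDO2 had the next smallest p, with a log2 fold change of -0.50 ± 0.34 (adjusted p = 0.774). The other 7 genes had log2 fold changes from -0.28 to 0.31, with standard errors of 0.23 to 0.50. Of the 9 values 4 were negative, with a median over all 9 of 0.01, and over all tested genes 42.6% were negative, with a median of 0.07.

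The NAGS value depended on single livers. The estimate was 0.62 without LD post-induction 1 and 0.65 without VHD post-induction 2. That of TDO2 was -0.79 without LD post-induction 1. With the sign of the score on component 1 as an added term the NAGS estimate was 1.37 ± 0.23 (edgeR adjusted p = 0.0265). NAGS was then the only 1 of the 9 to pass. Since 4 of the 5 libraries with a positive score are post-induction, this term is partly confounded with time.

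Animals parted into those where most of the 9 genes were higher after induction and those where most were lower. In VHD animals 3, 7 and 3 of 9 genes were higher post-induction (animals 1, 2 and 3), with median log2 changes of -0.33, 0.49 and -0.16. In LD animals the counts were 8, 2 and 0 of 9, with medians of 0.50, -0.52 and -0.76. LD1 and VHD2, where most were higher, are also the animals with the largest NAGS changes (1.82 and 2.23 on the log2 scale). In both of these animals component 1 had a lower score post-induction than at baseline, and in the other 4 it had a higher one.

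**Figure D2:**
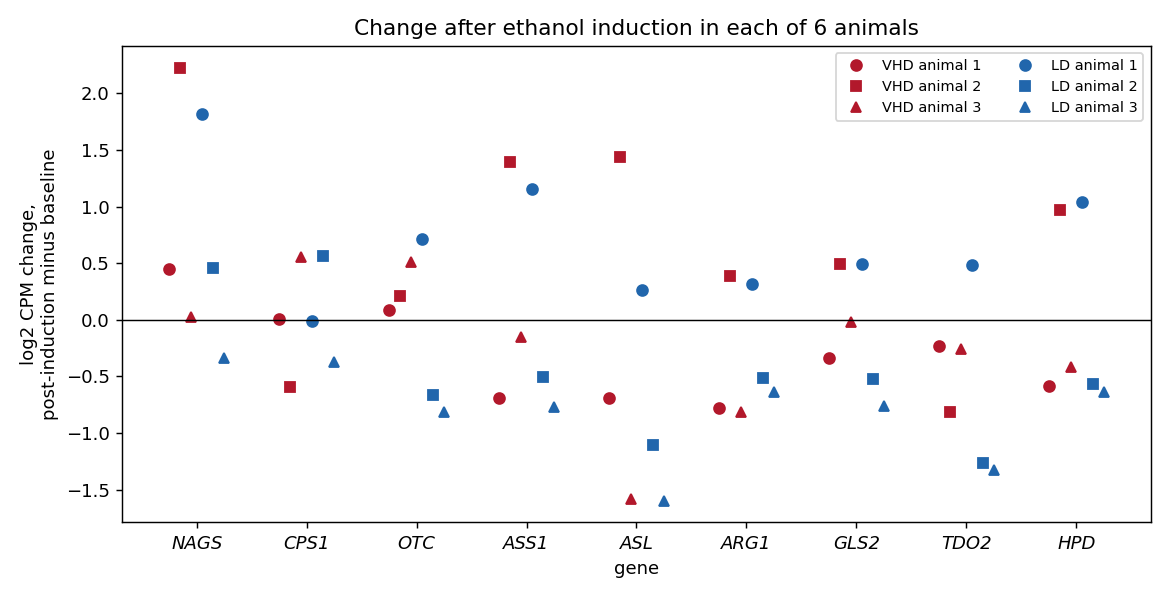
Change of log2 CPM from baseline to post-induction (vertical axis) in each of 6 animals for the 9 genes (horizontal axis), with VHD animals in red and LD animals in blue. NAGS was higher in 5 of 6 animals and TDO2 lower in 5 of 6, and animals LD1 and VHD2 lie above the other 4 for NAGS, ASS1, ASL, ARG1, GLS2 and HPD.

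Within each class no gene passed either. In VHD animals 0 of 9 genes passed, where 0% of all tested genes did, and 0 of 9 had an unadjusted p under 0.05, where 3.44% did. NAGS had a value of 1.02 ± 0.49, higher in 3 of 3 animals (edgeR adjusted p = 1.00), and ARG1 one of -0.36 ± 0.37, lower in 2 of 3 animals (adjusted p = 1.00). Without VHD post-induction 2 the NAGS value was 0.43 and the ARG1 value -0.69, and without VHD post-induction 3 the ARG1 value was -0.20. Levels of 1 of 9 genes, NAGS, did not overlap between VHD post-induction and VHD baseline, a share of 11.1% against 6.69% of all tested genes. In LD animals 0 of 9 passed (0% of all tested genes), and 0 of 9 had an unadjusted p under 0.05, where 5.7% did. NAGS was at 0.86 ± 0.49, higher in 2 of 3 animals (adjusted p = 0.861), and TDO2 at -0.58 ± 0.48, lower in 2 of 3 (adjusted p = 0.927). Without LD post-induction 1 these were 0.21 for NAGS and -1.16 for TDO2, and TDO2 was at -0.33 without LD post-induction 3. No gene of the 9 had separate LD post-induction and LD baseline levels, where 11.7% of all tested genes did.

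The difference of the responses, VHD minus LD, was tested in the same fit. It gave 0 of 9 genes past the threshold (0% of all tested genes) and 0 of 9 at an unadjusted p under 0.05 (1.3%). ASL and OTC had the smallest p, with values of 0.65 ± 1.00 and 0.27 ± 0.70 on the log2 scale (each adjusted p = 1.00). ASL turned to -0.70 without VHD post-induction 2, and OTC to -0.11 without VHD post-induction 1. Without LD post-induction 1 they were 1.71 for ASL and 0.96 for OTC. The other 7 genes had values between -0.22 and 0.16, with standard errors of 0.47 to 0.80.

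Before any ethanol, the question was whether livers of later very heavy drinkers differed from those of later light drinkers. None of the 9 genes passed in VHD against LD baseline livers, where 0.00544% of all tested genes did, and 0 of 9 had an unadjusted p under 0.05, where 1.86% did. HPD was at 1077 ± 449 CPM in VHD and 897 ± 112 CPM in LD baseline livers (SD, n = 3 each), a log2 fold change of 0.26 ± 0.50, and ASS1 at 959 ± 326 and 795 ± 37.7 CPM, a log2 fold change of 0.27 ± 0.57 (each edgeR adjusted p = 1.00). Both turned below 0 without VHD baseline 1, to -0.13 for HPD and -0.04 for ASS1, and HPD was at 0.47 without VHD baseline 2 and 0.17 without LD baseline 3. The other 7 genes had values between -0.22 and 0.31, and no gene had separate VHD and LD baseline levels, where 7.21% of all tested genes did.

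After induction the classes were compared again, and this comparison shares its libraries with the responses above. No gene of the 9 passed in VHD against LD post-induction livers (0% of all tested genes), and 0 of 9 had an unadjusted p under 0.05, where 2.44% did. ASL was at 258 ± 270 CPM in VHD and 133 ± 120 CPM in LD post-induction livers (SD, n = 3 each), a log2 fold change of 0.96 ± 0.71 (adjusted p = 0.999). ASS1 was at 1220 ± 854 and 955 ± 789 CPM, a log2 fold change of 0.35 ± 0.57 (adjusted p = 0.999). Without VHD post-induction 2 these became -0.38 for ASL and -0.39 for ASS1, and without LD post-induction 1 they were 2.02 for ASL and 1.28 for ASS1. No gene had separate levels in this comparison, where 4.83% of all tested genes did.

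Although no group difference passed, 8 of the 9 genes correlated positively with each other from liver to liver, with 1 pair near 0 excepted. Pearson correlations of log2 CPM over the 12 libraries, which share 6 animals, were positive in 27 of 28 pairs without CPS1, with a median of 0.62. The closest pair was ASS1 and HPD (0.91), followed by OTC and TDO2 (0.80) and ASS1 and GLS2 (0.80). The pair below 0 was NAGS with TDO2 (-0.02). CPS1 had correlations with the others from -0.25 (NAGS) to 0.09 (OTC). Correlations over pairs of all tested genes were not computed, so how common such positive pairs are in these libraries is not known.

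**Figure D3:**
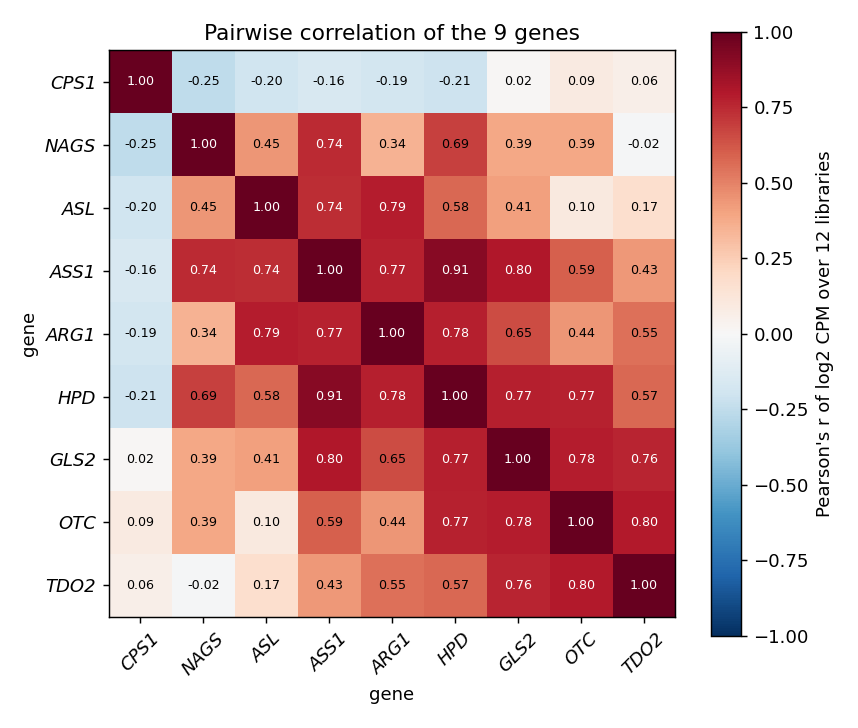
Pearson's r of log2 CPM over 12 libraries for each pair of the 9 genes, red for positive and blue for negative. The CPS1 row stays between -0.25 and 0.09, while the pairs among the other 8 genes reach 0.91 for ASS1 and HPD.

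This shared variation ran along component 1. Correlations with its scores were -0.90 for ARG1, -0.87 for HPD, -0.78 for ASS1, -0.73 for GLS2, -0.69 for OTC, -0.67 for TDO2, -0.66 for ASL, -0.42 for NAGS and 0.31 for CPS1. At or below -0.5 were 7 of 9, or 77.8%, where 20.5% of all tested genes were, and the component was computed from all tested genes, these 9 included. LD post-induction 1, with the lowest score, was among the 4 highest libraries for 8 of 9 genes. LD post-induction 3 was among the 4 lowest for all 9 genes, LD post-induction 2 for 7 and VHD post-induction 3 for 6. Not every library followed this order. VHD baseline 3 (score -5.61) was among the 4 lowest for 5 genes, and VHD post-induction 1 (score 7.22) among the 4 highest for 5. The summed hepatocyte markers were 260792 CPM in LD post-induction 1, against 181822 in LD post-induction 2 and 189222 CPM in LD post-induction 3. Among the LD post-induction livers, most marker sums of other cell types were also highest in liver 1. In LD post-induction 1, 2 and 3, stellate cell and fibroblast markers summed to 221, 89.5 and 105 CPM, and macrophage markers to 84.3, 38.6 and 54.3 CPM. Sinusoidal endothelial, cholangiocyte, erythrocyte and T and NK cell sums were also highest in LD post-induction 1. The kidney or gut sum was lowest in LD post-induction 1. VHD baseline 1 was among the 4 highest libraries for 6 of 9 genes. Hepatocyte markers summed to 260939, 140581 and 161673 CPM in VHD baseline 1, 2 and 3. Macrophage sums were 73.7, 78.5 and 93.7 CPM in these livers, and stellate cell and fibroblast sums 176, 170 and 79.1 CPM. In VHD post-induction 2, where ASS1, ASL and NAGS were highest, the hepatocyte sum was 165095 CPM. The part of cell composition in these differences was not tested.

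**Figure D4:**
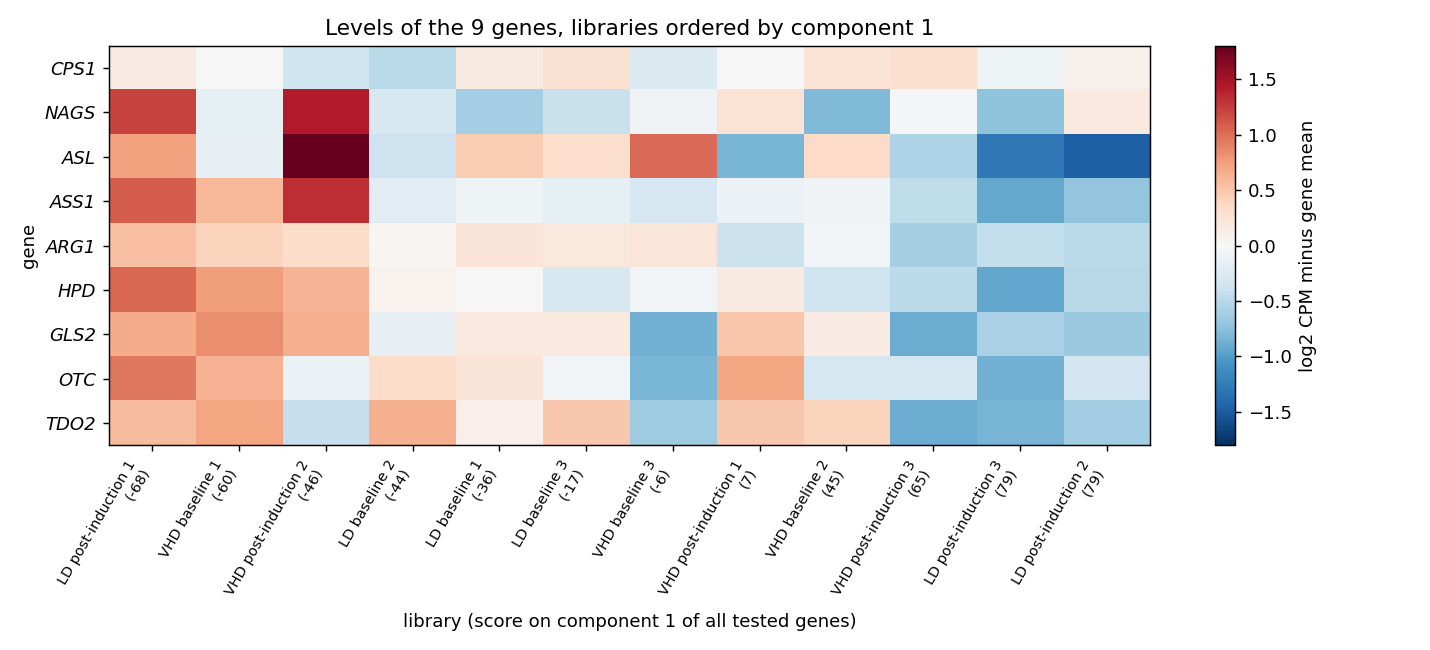
Log2 CPM of each gene minus its mean over 12 libraries (colour), with libraries ordered along the horizontal axis by their score on component 1, given in brackets. From LD post-induction 1 on the left to LD post-induction 2 on the right, the genes other than CPS1 pass from mostly red (above the mean) to mostly blue (below it), and CPS1 differs least from its mean.

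The mean of the 9 standardised profiles, which includes each member, correlated with HPD at 0.93, with NAGS at 0.59 and with CPS1 at only 0.03. It therefore does not describe CPS1. Genes outside the group were ranked by Pearson's r with this mean over the 12 libraries. The first 5 were IMPDH2, an enzyme of guanine nucleotide synthesis (0.95), the prolyl isomerase PPIA (0.95), the ribosome-bound scaffold RACK1 (0.95), XRCC6, a subunit of the Ku DNA repair complex (0.94), and FCGRT, the receptor that recycles IgG and albumin (0.94).

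Among the transcripts of ASL and GLS2, one model of each gene took a larger share of the counts in a pair of VHD livers. ASL had 5 transcripts in the table, and ENSMMUT00000075240, whose 3′ end lies 4319 bases beyond that of any other, took 58.7% of ASL counts in VHD post-induction 2 (95% Wilson interval 57.7 to 59.6%) and 53.6% in VHD baseline 3 (52.6 to 54.7%). In the remaining 10 libraries its share was between 28.8% and 42.6%. GLS2 had 6 transcripts, and ENSMMUT00000074989, which reaches 2964 bases further 3′ than the others, took 58.6% (56.8 to 60.4%) and 57.3% (54.9 to 59.8%) in the same livers, and between 32.6% and 46.2% elsewhere. The pair are the libraries that component 2 sets apart. Shares come from estimated counts of 76-base reads, whose assignment to overlapping transcripts adds error that these intervals, which cover counting error only, leave out. Tested as transcripts, 0 of 17 tested transcripts of the 9 genes passed in any of the 6 comparisons, and 0 of 27008 transcripts did in all.

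Around the 9 genes, 107 further genes of ammonia handling, amino acid breakdown and its regulation were listed, of which 100 were found and tested. In the mean response 0 of 100 passed, 10 had an unadjusted p under 0.05 (10%, against 7.91% of all tested genes), and the median log2 fold change was 0.14, against 0.07 over all genes. Those 10 were 4 regulators, 3 genes of glycine, serine, histidine, proline and lysine breakdown, and 1 each of the ammonia, transamination and branched-chain lists. In the other 5 comparisons 0 of 100 passed as well. At an unadjusted p under 0.05 there were 7 of 100 in the VHD response (3.44% of all tested genes), 4 in the LD response (5.7%) and 0 in the difference of responses (1.3%). In VHD against LD livers there were 2 of 100 at baseline (1.86%) and 1 post-induction (2.44%). Higher in 6 of 6 animals were 9 of the 100, against 2.68% of all tested genes, and lower in 6 of 6 were 2, against 3.74%. The lists were chosen with earlier results of these data known, so these shares are not an independent comparison.

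Among the regulators of amino acid breakdown, the smallest p in the mean response were those of PPARGC1A and KLF15. PPARGC1A, a coactivator of fasting metabolism in hepatocytes, was at 26.9, 24.1 and 27.8 CPM in VHD post-induction livers, against 54.7, 126 and 45.7 CPM in VHD baseline livers. In LD livers it was at 34.4, 27.4 and 48.9 CPM, against 70.6, 64.6 and 137 CPM at baseline. Its levels did not overlap between the times in either class, as held for 6.69% of all tested genes in VHD and 11.7% in LD livers. Its log2 fold change was -1.41 ± 0.30, lower in 6 of 6 animals, and it missed the threshold with edgeR (adjusted p = 0.0887) and passed with DESeq2 (adjusted p = 0.00133). KLF15, a transcription factor that promotes amino acid breakdown, was at 76.6, 103 and 82.6 CPM in VHD post-induction livers, against 38.5, 51.5 and 74.6 CPM in VHD baseline livers, and at 65.5, 72.7 and 103 CPM in LD post-induction livers, against 41.7, 42.3 and 48.1 CPM in LD baseline livers. Its value was 0.77 ± 0.22, higher in 6 of 6 animals (edgeR adjusted p = 0.268, DESeq2 adjusted p = 0.0396). Of the 10 regulators tested 6 values were positive and 4 negative, and 0 passed.

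Breakdown of glycine, serine, histidine, proline and lysine (20 tested, 13 positive, median 0.11, 0 passed) held DAO, an oxidase of D-amino acids. It was at 30.9, 99.4 and 29.2 CPM in VHD post-induction livers, against 14.6, 7.63 and 19.7 CPM in VHD baseline livers, and at 27.6, 10.1 and 7.57 CPM in LD post-induction livers, against 8.998, 5.82 and 6.11 CPM in LD baseline livers. The log2 fold change was 1.53 ± 0.41, higher in 6 of 6 animals (edgeR adjusted p = 0.224, DESeq2 adjusted p = 0.0223). GLDC, the decarboxylase of the glycine cleavage system, had a value of 0.74 ± 0.24, also higher in 6 of 6 animals (adjusted p = 0.344).

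For branched-chain amino acids (22 tested, 15 positive, median 0.13, 0 passed) the largest value was that of BCKDK, the kinase that switches off the branched-chain dehydrogenase. It was at 365, 102 and 571 CPM in VHD post-induction livers, against 80.0, 86.4 and 149 CPM in VHD baseline livers, and at 61.2, 230 and 641 CPM in LD post-induction livers, against 37.0, 56.2 and 74.6 CPM in LD baseline livers. The log2 fold change was 2.09 ± 0.52, higher in 6 of 6 animals (edgeR adjusted p = 0.163, DESeq2 adjusted p = 0.00287). With the term for component 1 it became 0.82 ± 0.60 (adjusted p = 0.697), and the 4 libraries with most BCKDK are those post-induction libraries with a positive score. HIBCH, of valine breakdown, had a value of 0.36 ± 0.20 (adjusted p = 0.707).

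Other ammonia and urea cycle genes (13 tested, 8 positive, median 0.10, 0 passed) held ARG2, the mitochondrial arginase, at -1.04 ± 0.40, lower in 5 of 6 animals (adjusted p = 0.504), and SLC25A12, an aspartate and glutamate carrier, at -0.66 ± 0.36 (adjusted p = 0.701). ARG2 was at 30.7 CPM in VHD baseline 2 and at 3.35 to 8.62 CPM in the other 11 libraries, and without VHD baseline 2 its value was -0.55. At baseline RHBG, an ammonium transporter, was at 13.1, 4.55 and 6.22 CPM in VHD livers, against 1.38, 3.42 and 1.37 CPM in LD livers. Its log2 fold change was 1.91 ± 0.72 (adjusted p = 1.00), and that of ARG2 was 1.13 ± 0.57 (adjusted p = 1.00) in the same comparison, the value being 0.01 without VHD baseline 2. Among the regulators at baseline, FOXO1, a transcription factor held back by insulin, was at -1.04 ± 0.38 and the stress-responsive CEBPB at 0.93 ± 0.52 (each adjusted p = 1.00). CEBPB was at 0.56 without LD baseline 1.

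Transaminases and glutamine genes (12 tested, 7 positive, median 0.23, 0 passed) were led by the aspartate aminotransferase GOT1, at -1.07 ± 0.41 and lower in 5 of 6 animals (adjusted p = 0.504). Without LD post-induction 1 it passed, at -1.64 (adjusted p = 0.0483). The ornithine aminotransferase OAT was at -0.45 ± 0.30 (adjusted p = 0.772), and at -0.20 without VHD baseline 1 and -0.70 without VHD baseline 3. For phenylalanine and tyrosine (7 tested, 4 positive, median 0.12, 0 passed), PCBD1, a pterin dehydratase, had a value of 0.37 ± 0.28 (adjusted p = 0.805), with 0.10 without LD post-induction 1 and 0.24 without VHD baseline 2. Tryptophan genes beside TDO2 (9 tested, 7 positive, median 0.18, 0 passed) included KYAT1 at 0.48 ± 0.28 (adjusted p = 0.735) and ACMSD at 0.30 ± 0.27 (adjusted p = 0.855), both of the kynurenine route. KYAT1 was at 0.19 without LD post-induction 1 and 0.32 without VHD baseline 2. ACMSD ran from 0.11 without VHD baseline 3 to 0.51 without VHD baseline 1, and leaving out 1 of the other 4 VHD libraries moved it by over 1.5 times as well. Sulphur amino acid genes (7 tested, 4 positive, median 0.17, 0 passed) included MAT1A, the S-adenosylmethionine synthetase of hepatocytes, at -0.43 ± 0.22 (adjusted p = 0.682) and the methyltransferase BHMT2 at 0.38 ± 0.21, higher in 6 of 6 animals (adjusted p = 0.702), and BHMT2 was at 0.25 without VHD baseline 2.

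**Figure D5:**
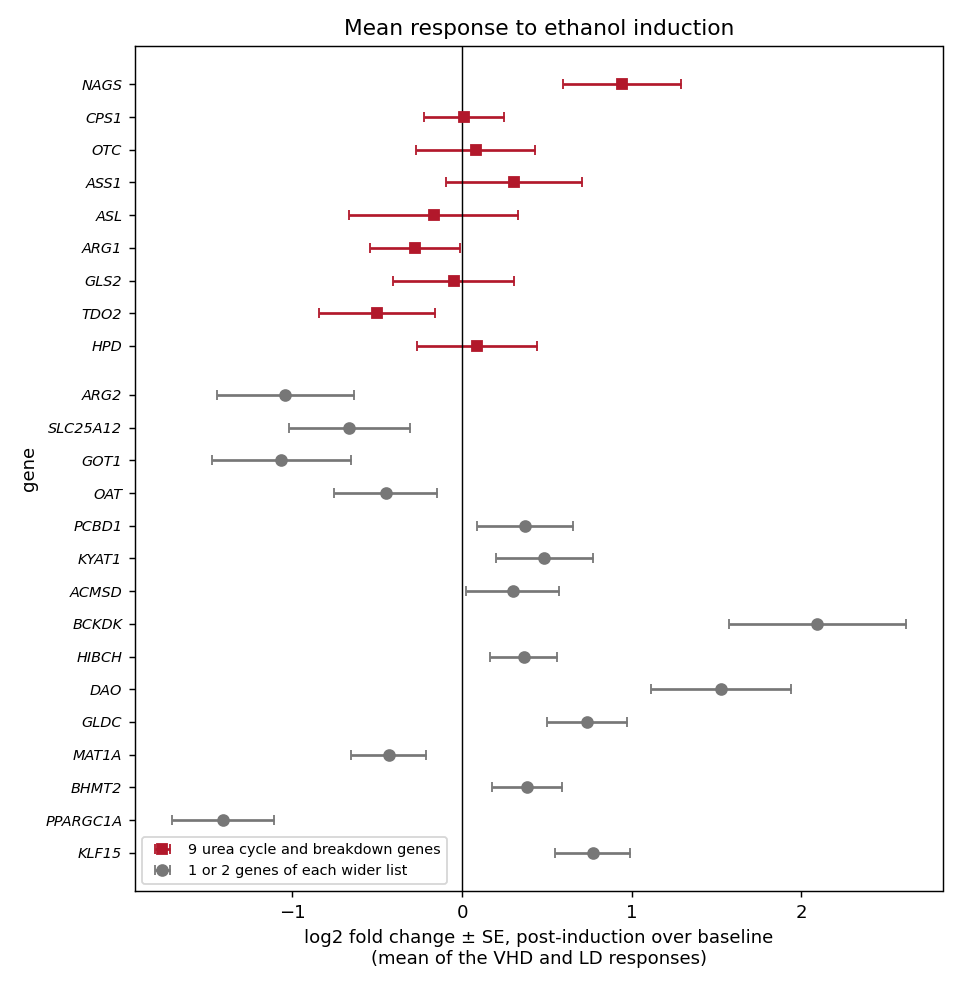
Log2 fold change ± SE of post-induction over baseline, as the mean of the VHD and LD responses (horizontal axis), for the 9 urea cycle and breakdown genes (red squares) and 1 or 2 genes from each of 8 wider lists (grey circles). NAGS at 0.94 lies farthest from 0 among the 9, and BCKDK at 2.09, DAO at 1.53 and PPARGC1A at -1.41 lie farthest among the others, and none passed the adjusted threshold.

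Markers of other cell types held fewer counts than those of hepatocytes, in lists of unequal length. Summed macrophage markers (5 of 7 found) were at 43.4 to 88.4 CPM in VHD post-induction and 73.7 to 93.7 CPM in VHD baseline livers. They were at 38.6 to 84.3 CPM in LD post-induction and 38.1 to 63.0 CPM in LD baseline livers. The VHD and LD baseline sums therefore did not overlap. Taken as single genes, 7.21% of all tested genes did not overlap in that comparison, and no such share was computed for sums of markers. Erythrocyte sums were separate at baseline too, but lower in VHD (19.4 to 22.3 CPM) than in LD baseline livers (26.4 to 55.2 CPM). That sum was mostly HBQ1, with a median of 18.5 CPM over all libraries. By log2 fold change, 4 of the 5 erythrocyte markers were higher in VHD baseline livers and 1 was lower, with a median of 0.10. Stellate cell and fibroblast markers (7 of 7 found) were at 101 to 122 CPM in VHD post-induction, 79.1 to 176 in VHD baseline, 89.5 to 221 in LD post-induction and 138 to 167 CPM in LD baseline livers. T and NK cell markers (4 of 6 found) were between 9.93 and 19.9 CPM over all libraries. Sinusoidal endothelial (4 of 6 found), cholangiocyte (4 of 5), erythrocyte (5 of 6) and kidney or gut markers (4 of 5) stayed below 113 CPM in every library, and none of the found markers was at 0 in all libraries. Their part in the results was not tested.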

How the data were processed

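Per the labels' protocols, 500 ng of total RNA per biopsy with a RIN above 8.5 was made into pooled mRNA and miRNA libraries with the NEXTFLEX Combo-Seq kit and sequenced as 76-base reads on an Illumina NovaSeq. The build was Mmul_8.0.1 and the tools included BWA, Bowtie and Partek, per the submitters' processing notes. Their versions and roles, the annotation release and strand handling are not stated there. The authors' deposited transcript table holds each expected count per transcript, an estimated count that need not be whole. Their deposited normalized table holds signal values, equal to the count times 1 constant per library, used only in an alternative.

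Expected counts of 40611 transcripts were summed into 23993 gene identifiers and rounded, and 15471 identifiers had a symbol. Low genes were removed with filterByExpr. In R 4.3.3, edgeR 4.0.16 fitted the 4 group means over 12 libraries (TMM, robust quasi-likelihood F test), with adjustment over all genes and a threshold of 0.05. Standard errors are the log2 fold change divided by the square root of F. Levels are CPM; the files give no transcript length, so levels were not compared between genes. The fit was tested on simulated data.

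The labels number the animals, so equal numbers within a class pair the 2 biopsies of 1 animal; deviations from group means correlated at -0.35 to 0.41 within animals. An animal term was an alternative, since no paired model was stated, as were DESeq2 1.42.0 and limma-trend (limma 3.58.1). P-values of the main fit treat biopsies of 1 animal as independent. The genes and lists were chosen with earlier results of these data known. Fold changes are given for members with an unadjusted p under 0.05, or the 2 with the smallest p, and for 2 genes per list in the mean response and at baseline for the ammonia and regulator lists. One gene that this rule names is not reported here.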

Additional observations from a re-analysis of the deposited data

How the results depend on the processing

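The count of members past the threshold was 0 of 9 in every comparison, and of the 20 or 21 alternatives per comparison and the test on transcripts 1 changed a count: with the term for the sign of component 1, 1 gene passed in the mean response. The replicate block, a term for the animal, changed no call (NAGS 0.76, adjusted p = 0.698), and 0 of the 9 genes passed with it. Between the classes the numbers join different animals (correlations -0.30 to 0.37), and a term for the number left the count at 0. Directions turned for 6 values that had not passed; the cause was not tested. Leaving out single libraries, the difference of responses ran from -0.70 to 1.71 for ASL and -0.11 to 0.96 for OTC (-0.0022 without VHD baseline 3, -0.057 without LD post-induction 3), VHD against LD baseline from -0.13 to 0.47 for HPD and -0.040 to 0.40 for ASS1, and VHD against LD post-induction from -0.38 to 2.02 for ASL and -0.39 to 1.28 for ASS1. ASL also turned in the difference of responses with the component 1 term (-0.13) and with VHD post-induction 2 and VHD baseline 3 both left out (-0.32), and in VHD against LD post-induction without these (-0.38), as did ASS1 (-0.39). The mean response of NAGS ran from 0.62 to 1.37 over 20 alternatives. DAO (2.10, adjusted p = 0.0039) and PPARGC1A (-1.63, adjusted p = 0.0289) passed with the component 1 term, and BCKDK passed without LD post-induction 1 (2.33, adjusted p = 0.0465). Over all genes, the mean response had 49 calls, 284 with DESeq2, 103 with the component 1 term, 4 with the animal term and 0 to 71 without single libraries. NAGS had the fewest reads of the 9 (52 to 683 per library), so its levels carry the most counting error.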
